A study of Mus musculus with 12 samples.

Results

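Egfr and 7 other genes for growth factor receptors were followed in mouse embryonic fibroblasts (MEFs) that lacked most of their Birc6 mRNA, the gene for BRUCE, or carried a control shRNA. The 8 genes, Egfr, Erbb2, Pdgfra, Pdgfrb, Fgfr1, Fgfr2, Igf1r and Met, were chosen by symbol among the 24062 genes of the count table, and 8 of 8 were found and passed the filter on low counts, as 12154 genes did. RNA was sequenced from MEFs expressing shRenilla, the control, or shBruce#1, an shRNA against Birc6. Each of these lines was kept in full medium (FM) or deprived of serum and amino acids for 2 h (Starv). The 4 conditions, shRenilla FM, shRenilla Starv, shBruce FM and shBruce Starv, had 3 replicate libraries each. With a single line for each shRNA, the knockdown and other differences between the lines cannot be told apart. The labels do not say whether replicates came from separate cultures, so the p-values measure the spread between these libraries, which may be technical.

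Receptor tyrosine kinases sit in the plasma membrane, bind a growth factor outside the cell and phosphorylate tyrosines inside it once they pair. Adaptors dock on these phosphotyrosines and pass the signal to RAS, PI3K and phospholipase C, and ubiquitin ligases such as CBL mark active receptors for endocytosis and breakdown in lysosomes. Fibroblasts are classical target cells of EGF, PDGF, FGF and IGF, and serum is a main source of these factors in culture. The counts measured here are mRNA levels and hold no information on receptor protein.

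The start sites of the receptor genes whose mRNA was lower in the shBruce line over both media, Egfr, Fgfr2 and Met, are shown first. The sequences are the bases upstream of the RefSeq start (GRCm38.p6) on the strand of each gene, 5′ to 3′, with the GC box GGGCGG, or its reverse complement, in capitals. They lie at chr11:16751953-16752202 on the plus strand for Egfr, at chr7:130266809-130267058 on the minus strand for Fgfr2 and at chr6:17463707-17463799 on the plus strand for Met, where the stretch ends before the first exon that GENCODE annotates.
Egfr: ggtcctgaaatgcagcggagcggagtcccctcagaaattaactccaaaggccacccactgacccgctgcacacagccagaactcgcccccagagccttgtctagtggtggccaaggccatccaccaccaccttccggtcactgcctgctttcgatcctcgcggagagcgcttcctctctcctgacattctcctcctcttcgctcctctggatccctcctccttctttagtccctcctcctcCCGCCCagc
Fgfr2: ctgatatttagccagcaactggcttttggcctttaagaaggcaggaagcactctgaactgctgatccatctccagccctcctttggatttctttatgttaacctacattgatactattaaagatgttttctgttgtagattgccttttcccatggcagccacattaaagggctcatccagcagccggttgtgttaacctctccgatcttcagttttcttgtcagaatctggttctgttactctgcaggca
Met: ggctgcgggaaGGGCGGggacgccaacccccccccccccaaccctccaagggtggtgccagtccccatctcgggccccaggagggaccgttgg
RefSeq promoters were found for 6 of the 8 genes, those of Egfr, Erbb2, Pdgfra, Fgfr2, Igf1r and Met. In the 250 bases before the start, the GC box was found once for Egfr, 2 times for Igf1r and 3 times for Met on either strand, and it occurs in 32.7% of all 32851 promoters. The letters CACGTG (E-box) and TGACTCA (AP-1) were each found once for Met, and they occur in 6.02% and 4.46% of all promoters. The 250 bases of Met reach into the first exon that GENCODE annotates. The printed part holds 1 of its GC boxes and neither the E-box nor the AP-1 letters. The letters GTAAACA (FOXO) and GCGGGGGCG (EGR), which can overlap a GC box, were found for none of the 6. The stretches of the 3 genes that were lower together thus differed in these letters. That of Fgfr2 held none of them, with a GC content of 44.0% against 60.8% for Egfr and 74.0% for Met. The Fgfr2 stretch lies inside the gene as GENCODE annotates it, from 130162451 to 133123350, and other starts of Fgfr2 were not looked at.

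Total counts ranged from 7717265 (shBruce Starv replicate 1) to 18510540 per library. Birc6, the knockdown target, was lower in every shBruce library than in any shRenilla library of the same medium. Its normalized counts were 4682, 3273 and 5061 in shRenilla FM, 4759, 4712 and 2787 in shRenilla Starv, 1207, 1265 and 1390.4 in shBruce FM, and 1175, 703 and 1226 in shBruce Starv. The log2 fold change over both media was -1.87 ± 0.175 (SE; edgeR quasi-likelihood test, adjusted p = 0.000958). Of the 11 fibroblast markers, 9 passed the filter, led by Vim, Col1a1 and Fn1, but Thy1 and Lum were at 0 in the median library. The summed fibroblast markers ranged from 148558 to 221267 normalized counts, while the 7 epithelial markers summed to between 3.81 and 58.5 per library and the 5 endothelial markers to between 6.94 and 64.0. The 4 leukocyte markers in the table, mostly Cd68, summed to between 71.4 and 142, with Cd3e at 0 in every library. The 6 smooth muscle and pericyte markers, led by Cspg4 and Acta2, summed to between 1971 and 3784. They were lower in shBruce FM (1971 to 3060.0) than in shRenilla FM (3165 to 3784) and in shBruce Starv (2144 to 2705) than in shRenilla Starv (2884 to 3054), while in FM the fibroblast markers (188081 to 221267 against 173485 to 178933) and the leukocyte markers (109 to 142 against 91.4 to 105) were higher in shBruce and the endothelial markers lower (6.94 to 22.0 against 37.6 to 39.99), with overlap in Starv for these 3. The part of these markers in the line differences of the receptors was not tested. In such bulk samples fewer cells of a type and less RNA per cell cannot be told apart.

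A normalized count is a count scaled to a common effective library size, and levels of different genes were compared per kb of annotated exons. On that scale 6 receptors lay close to each other in shRenilla FM, with means from 173 for Pdgfrb to 237 for Erbb2, the ERBB member that has no known ligand of its own. Egfr, the receptor for EGF and its relatives, was the lowest at 53.0 ± 9.76 (SD, n = 3), next to Fgfr2, an FGF receptor, at 54.8 ± 2.02. Between them and the other 6 the ranges of the libraries did not overlap in shRenilla FM. The order of the upper 6 was Erbb2, Fgfr1, Met, Pdgfra, Igf1r and Pdgfrb, and the ranges of neighbours in that order overlapped, as did those of Fgfr2 and Egfr. Farther apart in the order they did not all overlap, since Erbb2 (223 to 247) and Fgfr1 (207 to 226) lay above Pdgfra (158 to 197), Igf1r (163 to 189) and Pdgfrb (159 to 182).

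The order moved with the condition mainly within the upper group. In shRenilla Starv, Pdgfrb, the receptor for PDGF-BB, stood second with 204 ± 25.6 per kb, and in shBruce Starv it stood first with 195 ± 45.9. Erbb2 (215 to 219) lay above Fgfr1 (179 to 186) in shRenilla Starv, and both lay above Igf1r (137 to 173) and Pdgfra (137 to 165). Egfr and Fgfr2 were the 2 lowest in all 4 conditions, with Egfr at 58.4, 34.1 and 30.9 and Fgfr2 at 53.4, 35.9 and 40.4 per kb in shRenilla Starv, shBruce FM and shBruce Starv. These positions depended on the length chosen. Divided by the longest transcript instead, Fgfr1 stood first in all 4 conditions, at 429 per kb in shRenilla FM, and Egfr was last in all 4. Fgfr2 was then at 128 per kb in shRenilla FM (122 to 132), clear of Egfr at 58.8 (47.3 to 68.8), and in shBruce Starv its range of 71.1 to 118 overlapped that of Pdgfra, 91.3 to 300.1.

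**Figure D1:**
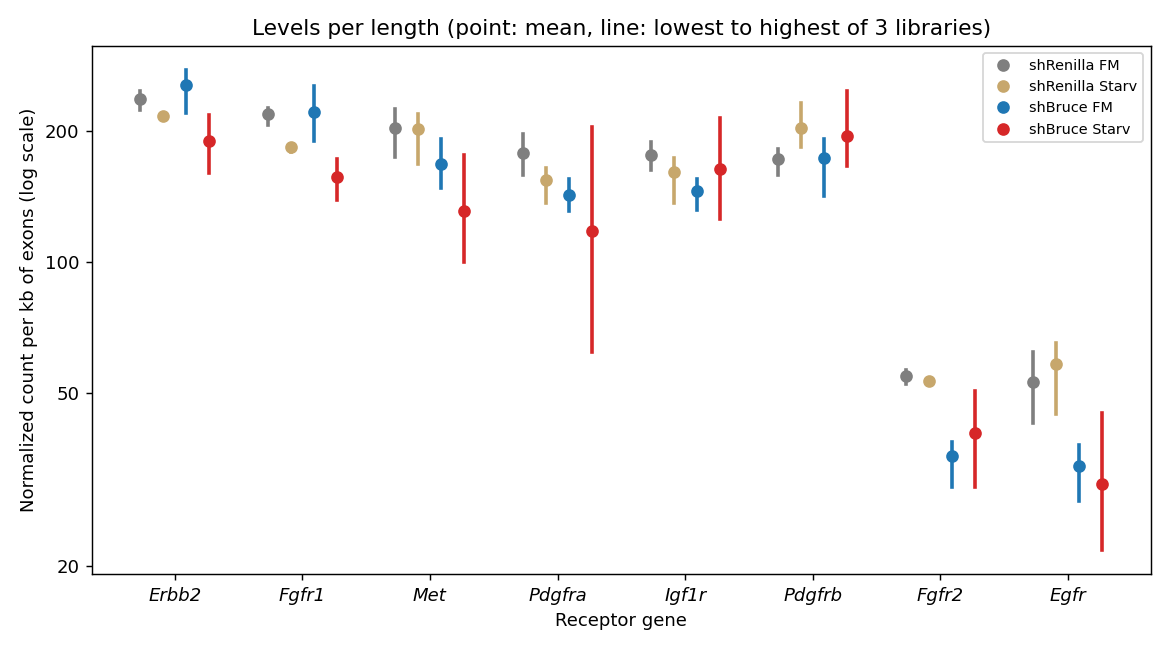
Normalized count per kb of annotated exons (log scale) of the 8 receptors, with the mean (point) and the lowest to highest of 3 libraries (line) in each condition. Egfr and Fgfr2 sit below the other receptors in every condition on this scale. Of the other 6, Erbb2 lies above Pdgfra and Igf1r without overlap in both shRenilla conditions.

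Between the lines, over both media, Egfr, Fgfr2 and Met were lower in shBruce than in shRenilla MEFs, to 0.585, 0.706 and 0.735 of the shRenilla level. Thus 3 of the 8 receptors were called lower and 0 higher at an adjusted p under 0.05, where 15.7% of all genes tested were called lower and 16.3% higher. The median log2 fold change of the 8 was -0.24, against 0.0012 over all genes tested. The comparison over both media uses the same libraries as those within FM and within Starv, so the 3 are not independent of each other, and the starvation comparisons share libraries with them too.

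Egfr had normalized counts of 615, 483 and 703 in shRenilla FM and of 431, 407 and 319 in shBruce FM. In Starv it had 738, 739 and 507 in shRenilla and 295, 246 and 509.9 in shBruce MEFs. In FM the lines did not overlap, whereas in Starv shBruce replicate 3 lay just above shRenilla replicate 3. The log2 fold change was -0.77 ± 0.179 over both media (adjusted p = 0.0129, exact permutation p = 0.01 with lines permuted within each medium). It was -0.64 ± 0.251 in FM, which did not pass the test (adjusted p = 0.310), and -0.91 ± 0.254 in Starv (adjusted p = 0.0285). The call in Starv was lost without shRenilla Starv replicate 1 or 2 (-0.83 and -0.82) or shBruce Starv replicate 1 or 2 (-0.82 and -0.70). In those 4 fits the calls over all genes fell too, from 2907 genes to 0, 0, 573 and 15. The call over both media stayed in each of the 12 fits that left out a library. The difference between these values, the interaction of line and medium, was -0.27 with a 95% confidence interval from -1.04 to 0.497 (adjusted p = 0.854).

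Fgfr2 had normalized counts of 572, 542 and 582 in shRenilla FM and of 399, 398 and 314 in shBruce FM. After starvation the values were 559, 556 and 539.8 in shRenilla and 315, 416 and 521 in shBruce MEFs. In both media every shBruce library lay below every shRenilla library, as for 8.43% of all genes tested. The log2 fold change over both media was -0.50 ± 0.116 (adjusted p = 0.0128, exact permutation p = 0.005, the smallest the design allows). Within FM (-0.61 ± 0.163, adjusted p = 0.248) and within Starv (-0.39 ± 0.163, adjusted p = 0.0898) it did not pass the test.

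Met, which encodes the receptor of hepatocyte growth factor, had normalized counts of 1613, 1339 and 1723 in shRenilla FM and of 1265, 1134 and 1475 in shBruce FM. In Starv it had 1676, 1683 and 1291 in shRenilla and 769, 900.5 and 1352 in shBruce MEFs. The lines overlapped in both media, through the replicate 3 library of each line in Starv. The log2 fold change was -0.44 ± 0.139 over both media (adjusted p = 0.0297, exact permutation p = 0.02), -0.62 ± 0.197 in Starv (adjusted p = 0.0402) and -0.27 ± 0.196 in FM (adjusted p = 0.490). Over both media the call was lost in 7 of the 12 fits that left out a library, namely without shRenilla FM replicate 1 or 3, shRenilla Starv replicate 1 or 2, shBruce FM replicate 1 or 2, or shBruce Starv replicate 2 (-0.44 to -0.40, adjusted p from 0.0585 to 0.0792), where 1396 to 2946 of all genes were called in place of 3900. In Starv it was lost in 8 of 12 (-0.62 to -0.47).

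**Figure D2:**
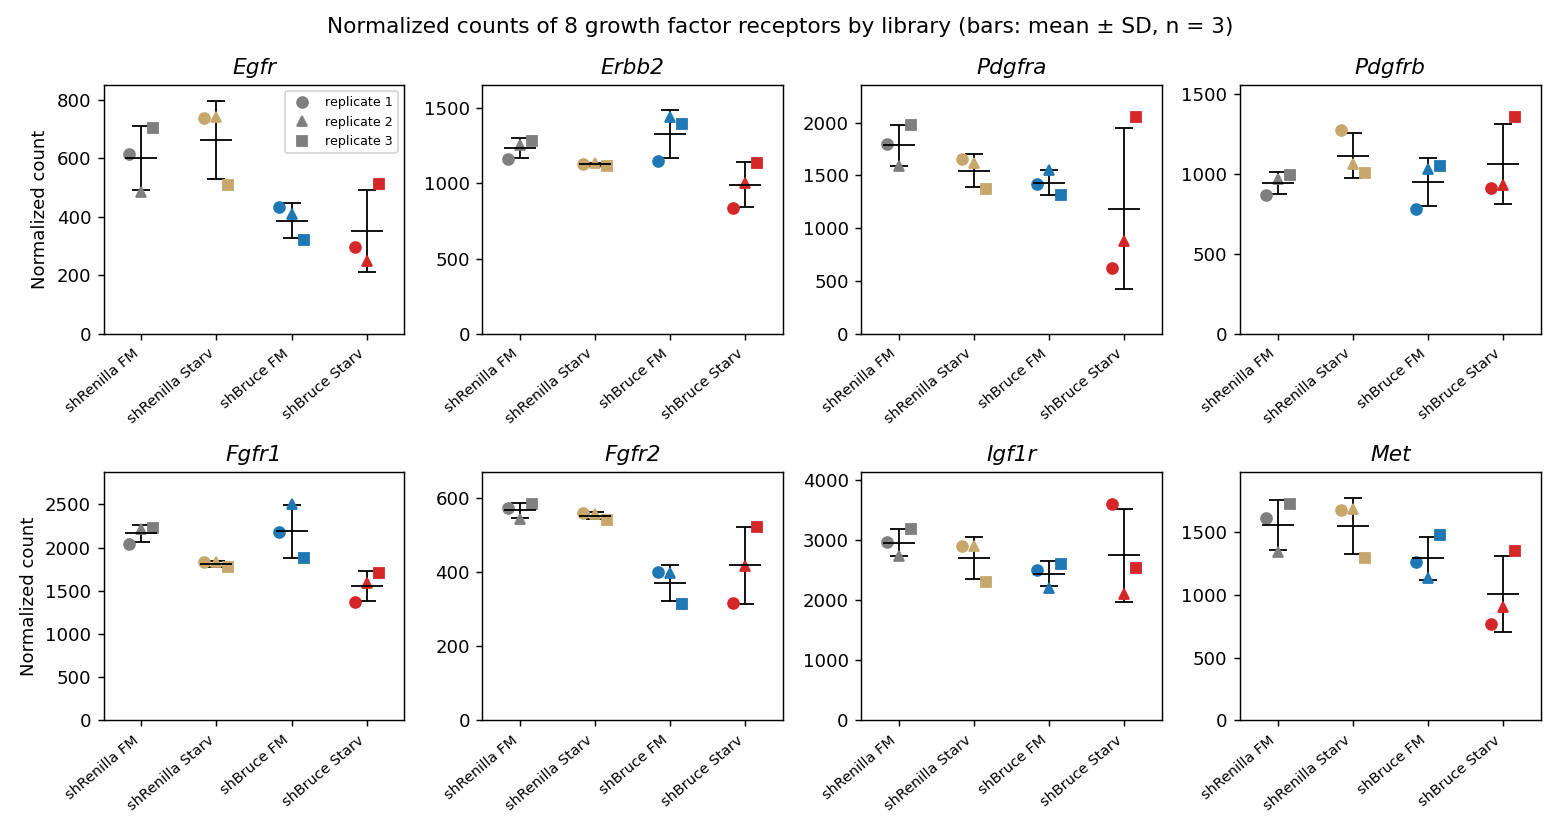
Normalized counts of the 8 receptors in each of the 12 libraries, by condition, with markers for the replicate number and bars for the mean ± SD (n = 3). Egfr, Pdgfra, Fgfr2 and Igf1r are lower in all shBruce FM libraries than in all shRenilla FM libraries, as are 17.0% of all genes tested. Replicate 3 is the highest of the shBruce Starv libraries for all receptors but Igf1r.

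The other 5 receptors did not pass the test between the lines over both media. Pdgfra, the receptor for PDGF-AA, had a log2 fold change of -0.35 with a 95% confidence interval from -0.820 to 0.123, which leaves room for a change as large as that of Egfr. Its 3 shBruce Starv libraries were far apart, at 624, 878 and 2051 normalized counts, against 1371 to 1652 in shRenilla Starv. Without shBruce Starv replicate 3, Pdgfra passed the test over both media with -0.68 (adjusted p = 0.000449), in a fit that called 6081 of all genes in place of 3900. Igf1r (-0.13), Fgfr1 (-0.10), Erbb2 (-0.041) and Pdgfrb (-0.026) had intervals that all lay within -0.396 and 0.237, so a difference of the size fitted for Egfr is outside them.

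Within FM, 0 of the 8 receptors and 0.00% of all genes passed the edgeR test, and DESeq2 and limma-voom called 0 of the 8 as well. Birc6, the knockdown target, did not pass the edgeR test there either (-1.75 ± 0.246, adjusted p = 0.0627). A gene that did not pass in FM is therefore not shown to be unchanged. Over all genes, DESeq2 called 76, and edgeR with the FM libraries fitted alone called 597 of 11680. At an unadjusted p under 0.05 edgeR gave 2 of the 8, Egfr and Fgfr2, and 14.4% of all genes. All 3 shBruce FM libraries lay below all 3 shRenilla FM libraries for 4 of the 8, Egfr, Pdgfra, Fgfr2 and Igf1r, as for 17.0% of all genes tested. Within Starv, 2 of the 8, Egfr and Met, were called lower and 0 higher, against 11.2% and 12.8% of all genes. The libraries of the 2 lines did not overlap in Starv for Fgfr1 and Fgfr2, both lower in shBruce, as for 18.5% of all genes. With 3 libraries against 3, the exact permutation test within a medium cannot go below 0.1.

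**Figure D3:**
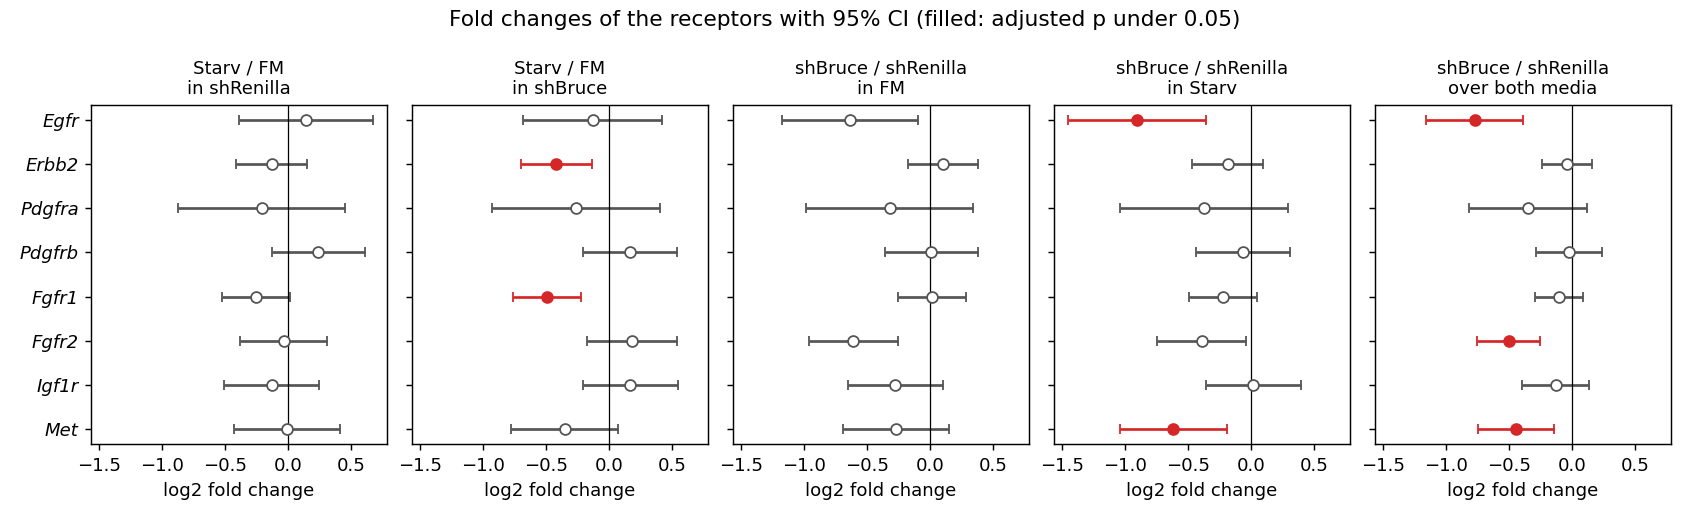
Log2 fold changes of the 8 receptors with 95% confidence intervals (x axis) in each comparison of medium or line, filled red where the adjusted p was under 0.05. Egfr, Fgfr2, Met and Pdgfra lie below 0 in all 3 comparisons of the lines, and Fgfr1, Erbb2, Pdgfra and Met lie below 0 in both starvation comparisons.

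The lines also differed in a trend against transcript length, taken here as the bp of annotated exons. This trend moved with some of the receptor differences. Over 12050 genes, a library's deviation from the mean of all libraries, per doubling of transcript length, was 0.0626, -0.0228 and 0.0972 on the log2 scale in shRenilla FM and 0.179, 0.178 and 0.0285 in shRenilla Starv. It was -0.0757, -0.0895 and -0.0473 in shBruce FM and -0.147, -0.194 and 0.0319 in shBruce Starv. Long transcripts were therefore relatively more abundant in most shRenilla libraries. The libraries that stood apart for Egfr and Met in Starv, replicate 3 of each line, are also those whose length trend was near 0. Egfr has 11326 bp of exons, Fgfr2 10328, Met 7679, Igf1r 16791, Pdgfra 10024, Fgfr1 9875, Pdgfrb 5478 and Erbb2 5210, against a median of 4485 among the genes tested. In the same order of genes, the log2 fold changes over both media were -0.77, -0.50, -0.44, -0.13, -0.35, -0.10, -0.026 and -0.041. The order of lengths depends on the measure. By annotated exons Erbb2 and Pdgfrb are the shortest, but by the longest transcript Fgfr2 is, at 4429 bp, with Fgfr1 at 5041 bp. The GC content of the longest transcript was 44.4% for Egfr, 45.5% for Met, 48.1% for Pdgfra, 49.4% for Igf1r and 50.2% for Fgfr2. It was 54.9% for Pdgfrb, 55.4% for Fgfr1 and 57.3% for Erbb2. The part of length and GC content in the single differences was not tested.

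With the trend against length and GC content removed from each library, Egfr remained lower over both media, at -0.44 ± 0.127 (adjusted p = 0.0363). Fgfr2 (-0.32 ± 0.107, adjusted p = 0.0626) and Met (-0.20 ± 0.0974, adjusted p = 0.159) no longer passed. Igf1r, the longest of the 8, turned from -0.13 to 0.14, neither of which passed. Within Starv 0 of the 8 passed after the removal, with Egfr at -0.51 (adjusted p = 0.0800) and Met at -0.31 (adjusted p = 0.138). Over all genes, the share called lower in this fit was 7.99% over both media and 4.91% in Starv.

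**Figure D4:**
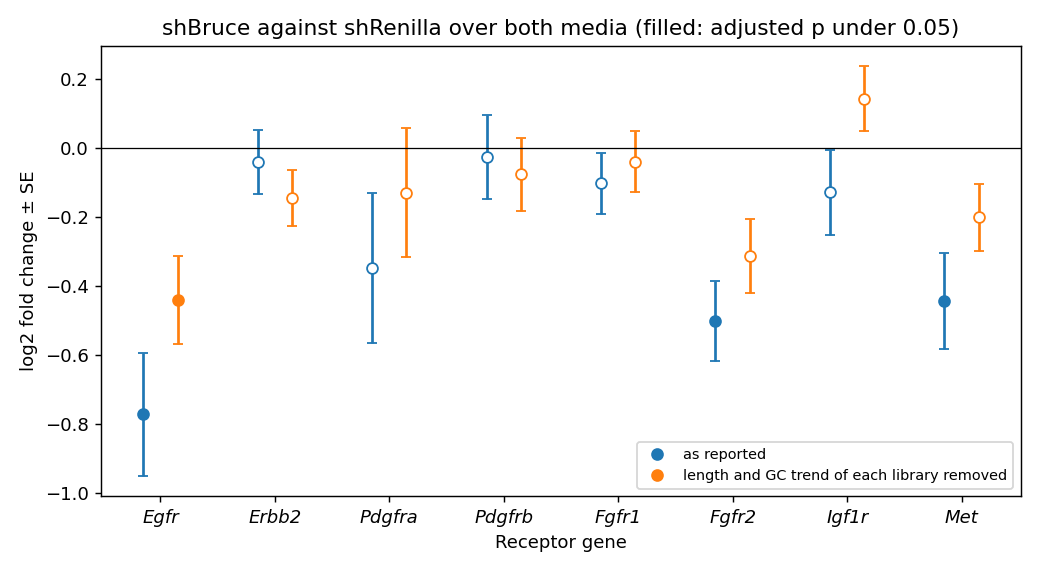
Log2 fold change ± SE of shBruce against shRenilla MEFs over both media, for each receptor, as reported (blue) and with the length and GC trend of each library removed (orange), filled where the adjusted p was under 0.05. Egfr, Fgfr2, Met and Pdgfra move toward 0, Egfr stays below the threshold at -0.44, and Igf1r moves above 0.

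After 2 h of starvation, few receptor mRNAs passed the test. In shBruce MEFs, Fgfr1, the main FGF receptor of mesenchymal cells, and Erbb2 fell, to 0.711 and 0.748 of the FM level. These were 2 of the 8 called lower and 0 called higher, where 10.6% of all genes tested were called lower and 12.4% higher. In shRenilla MEFs, 0 of the 8 were called in edgeR, DESeq2 or limma-voom, nor at an unadjusted p under 0.05 in edgeR, whereas 17.0% of all genes were called and 31.6% had an unadjusted p under 0.05.

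Fgfr1 had normalized counts of 2177, 2503 and 1878 in shBruce FM and of 1369, 1586 and 1704 in shBruce Starv, without overlap, as for 14.8% of all genes tested on the lower side. In shRenilla MEFs it had 2045, 2217 and 2228 in FM and 1833, 1832 and 1772 in Starv, again without overlap, where 26.5% of all genes tested were lower without overlap. The log2 fold changes were -0.49 ± 0.125 in shBruce (adjusted p = 0.0128) and -0.26 ± 0.124 in shRenilla MEFs (adjusted p = 0.179). The interaction was -0.24 with a 95% confidence interval from -0.616 to 0.143 (adjusted p = 0.806), so the fall is not shown to differ between the lines. When the shRenilla libraries were fitted alone, Fgfr1 passed there too (adjusted p = 0.0239), and when the shBruce libraries were fitted alone it did not (adjusted p = 0.128). The calls over all genes moved the same way, with 5013 of 11954 in the shRenilla fit and 956 of 11787 in the shBruce fit.

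Erbb2 had normalized counts of 1147, 1440.5 and 1396 in shBruce FM and of 834, 1005 and 1133 in shBruce Starv. In shRenilla MEFs it had 1164, 1259 and 1286 in FM and 1130.0, 1139 and 1119.5 in Starv. All Starv libraries lay below all FM libraries in each line, but the nearest libraries were close in both. Of all genes tested, 14.8% in shBruce and 26.5% in shRenilla MEFs were lower without overlap. The log2 fold changes were -0.42 ± 0.131 in shBruce (adjusted p = 0.0350) and -0.13 ± 0.130 in shRenilla MEFs (adjusted p = 0.530), with an interaction of -0.29 (95% confidence interval from -0.688 to 0.110, adjusted p = 0.806). Erbb2 was less firmly called than Fgfr1, since it passed in 3 of the 12 fits that left out a library, those without shRenilla Starv replicate 3, shBruce FM replicate 1 or shBruce Starv replicate 3, and ranged from -0.53 to -0.33 over the 12. Fgfr1 was lost only without shBruce FM replicate 2 (-0.39, adjusted p = 0.0647), where the calls over all genes fell from 2790 to 1855. An exon of Erbb2 overlaps one of Mien1 on the opposite strand, and without the strand setting of the counting, reads from the overlap cannot be assigned.

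Egfr did not pass the test after starvation in either line, with a log2 fold change of 0.14 (95% confidence interval from -0.393 to 0.676) in shRenilla and of -0.13 (from -0.680 to 0.421) in shBruce MEFs. Pdgfrb was higher in all shRenilla Starv libraries (1008 to 1274) than in all shRenilla FM libraries (869 to 996) without passing the test (0.24 ± 0.172, adjusted p = 0.370), and 25.9% of all genes tested were higher without overlap there. The remaining log2 fold changes after starvation were between -0.21 and -0.0077 in shRenilla MEFs for Pdgfra, Fgfr2, Igf1r and Met, and between -0.35 and 0.18 in shBruce MEFs for the same genes and Pdgfrb. The interaction of line and medium was called by edgeR, DESeq2 and limma-voom for 0 of the 8, with 0 at an unadjusted p under 0.05, and for 0.00% of all genes, of which 3.90% had an unadjusted p under 0.05.

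Genes listed as ligands of these receptors were called lower after starvation in both lines more often than the receptors themselves were, a difference that was not tested. Of the 26 ligand genes listed, 17 passed the filter, of which 9 were called lower and 1 higher in shRenilla, and 10 lower and 1 higher in shBruce MEFs. The list included the neuregulin genes Nrg1 to Nrg4, for ligands of ERBB3 and ERBB4, which are not among the receptors followed here. Of these neuregulin genes only Nrg1 passed the filter. It was called lower in shRenilla (-0.51, adjusted p = 0.0204) and shBruce MEFs (-1.29, adjusted p = 6.29e-05), so the lower counts of both lines include it. Among all genes, 7.27% were called lower and 9.69% higher in shRenilla MEFs, and 10.6% lower and 12.4% higher in shBruce MEFs. The median log2 fold changes of the ligands were -0.84 and -1.04, against -0.0051 and 0.021 for all genes tested. Leaving out a library gave 7 to 10 and 9 to 11 ligands lower, and the shBruce libraries fitted alone gave 6, where 3.43% of all genes were lower.

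Ereg, for the EGFR ligand epiregulin, fell from 771 ± 108 to 122 ± 4.60 normalized counts (SD, n = 3) in shRenilla and from 629 ± 30.1 to 111 ± 95.8 in shBruce MEFs, with log2 fold changes of -2.66 and -2.43 (adjusted p = 0.000435 and 0.000742). Hbegf, for heparin-binding EGF-like growth factor, fell from 2767 ± 155 to 457 ± 27.9 in shRenilla MEFs (log2 fold change -2.60, adjusted p = 0.000205) and also fell in shBruce MEFs (-1.77, adjusted p = 0.00202). Fgf7, a ligand of the FGFR2 splice form found in epithelia, fell from 1892 ± 206 to 439.9 ± 31.2 in shRenilla and from 2122 ± 177 to 429 ± 60.9 in shBruce MEFs (-2.10 and -2.30, adjusted p = 8.38e-07 and 3.50e-07). Pdgfb, for the PDGF-B chain, fell from 209 ± 14.4 to 75.7 ± 6.26 in shRenilla and from 197 ± 53.4 to 55.2 ± 2.57 in shBruce MEFs (-1.46 and -1.83, adjusted p = 0.000193 and 5.13e-05). The only ligand called higher in each line was Fgf21, an endocrine FGF known as a stress-induced hormone. It had 2 counts in all shRenilla FM libraries together and 117 in shRenilla Starv, and 5 and 98 in the same conditions of shBruce MEFs (adjusted p = 0.000115 and 0.000235), so that the size of its rise rests on very few counts in FM.

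**Figure D5:**
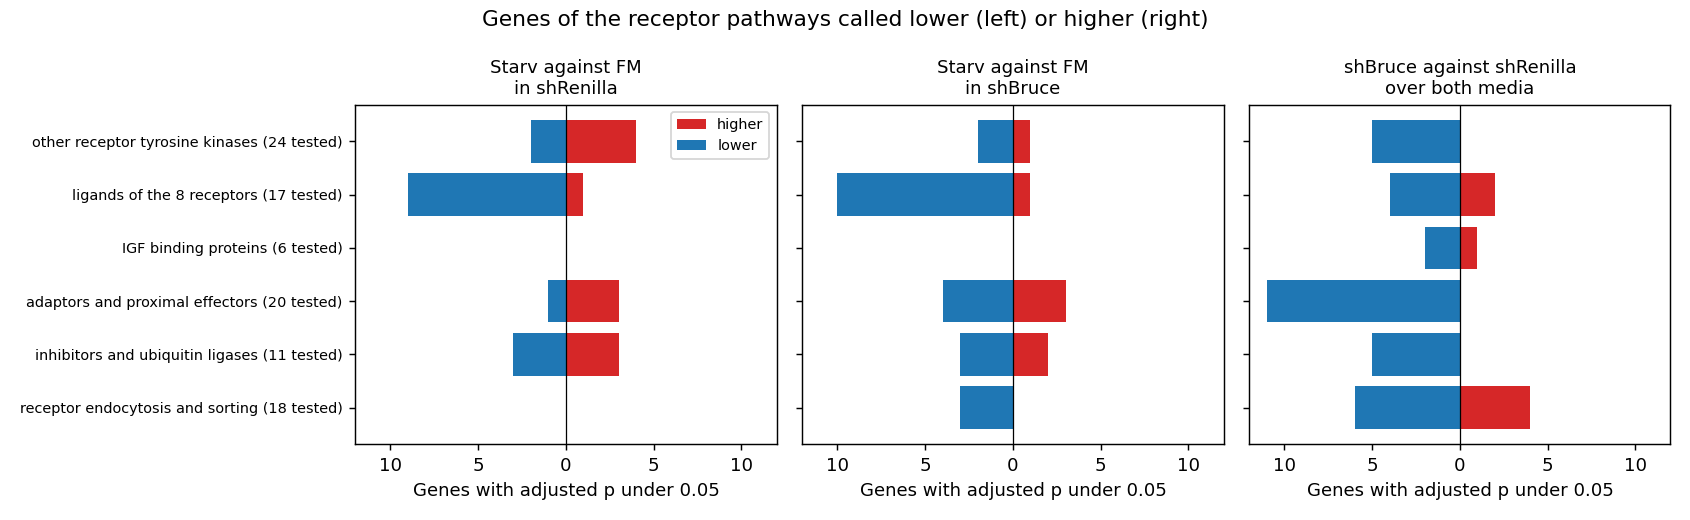
Number of genes called lower (blue, left) or higher (red, right) at an adjusted p under 0.05 in 6 lists around the receptors, with the number tested in each list. The ligand list, Nrg1 included, shows 9 and 10 genes lower after starvation, and the adaptors show 11 genes lower between the lines over both media.

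Genes that act next to the receptors changed in both directions after starvation. Of the 11 tested inhibitors and ubiquitin ligases, 3 were called lower and 3 higher in shRenilla, and 3 lower and 2 higher in shBruce MEFs, where over all genes 7.27% were lower and 9.69% higher in shRenilla and 10.6% and 12.4% in shBruce MEFs. Leaving out a library gave 3 and 3 to 4 lower, but 0 to 3 and 0 to 2 higher, with 0 higher in shRenilla without shRenilla FM replicate 2 and 0 in shBruce without shBruce FM replicate 1. Errfi1, for the EGFR inhibitor MIG6, fell from 5315 ± 146 to 1136 ± 29.8 in shRenilla and from 5468 ± 237 to 925 ± 618 in shBruce MEFs (-2.23 and -2.55, adjusted p = 0.000433 and 0.000145). Lrig1, a transmembrane inhibitor of ERBB receptors, fell (-0.76 and -1.06, adjusted p = 0.0123 and 0.00148), as did the phosphatase gene Ptpn1 (-0.62 and -0.49, adjusted p = 0.00317 and 0.00963). The relatives Lrig2 (0.88 and 0.66) and Lrig3 (0.70 and 0.64) rose in both lines, with adjusted p between 0.0108 and 0.0404. In shBruce MEFs Lrig2 passed in 3 of the 12 fits that left out a library (0.31 to 0.84).

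Of the 20 tested adaptors and proximal effectors, 3 were called higher and 1 lower in shRenilla, and 3 higher and 4 lower in shBruce MEFs, against the same shares of all genes. When each library was left out in turn, 1 to 5 were higher and 0 to 1 lower in shRenilla, and 2 to 4 higher and 1 to 5 lower in shBruce. Irs2, an adaptor of the insulin and IGF1 receptors, rose from 331 ± 61.6 to 739.5 ± 151 in shRenilla and from 157 ± 19.5 to 408 ± 191 in shBruce MEFs (1.16 and 1.36, adjusted p = 0.0180 and 0.00758). Gab1, a docking protein of MET and EGFR, rose (0.87 and 0.83, adjusted p = 0.000534 and 0.000718), and Pik3r1, the regulatory subunit of PI3K, fell (-0.61 and -0.60, adjusted p = 0.0164 and 0.0149). In shRenilla MEFs, 4 of the 24 other receptor tyrosine kinases tested were called higher and 2 lower, against 9.69% and 7.27% of all genes. In shBruce MEFs, 1 was called higher and 2 lower, against 12.4% and 10.6% of all genes. In the fits without 1 library these counts were 1 to 5 and 1 to 2 in shRenilla, and 1 to 3 and 1 to 9 in shBruce MEFs, the 9 without shBruce Starv replicate 3. Epha2, an ephrin receptor, fell from 4391 ± 452 to 1371 ± 25.0 and from 3756 ± 1039 to 905.5 ± 49.7 (-1.68 and -2.05, adjusted p = 4.45e-05 and 8.40e-06), and Insr, the insulin receptor, rose in shRenilla MEFs (0.78, adjusted p = 0.0112), with 0.32 in shBruce MEFs (adjusted p = 0.235) and an interaction of -0.46 (adjusted p = 0.806). Of the 18 genes of receptor endocytosis and sorting, 0 were called in shRenilla MEFs by edgeR, with 1 at an unadjusted p under 0.05. Over all genes these shares were 17.0% and 31.6%. In shBruce MEFs, 3 of the 18 were called lower, where 10.6% of all genes were. These 3 were the endocytic genes Ap2a1 (-0.50) and Epn2 (-0.47) and the ALIX gene Pdcd6ip (-0.46). Their values in shRenilla MEFs were -0.21, -0.18 and -0.15, and the interaction was not called for any of the 3 (adjusted p = 0.806 each). Of the 6 tested IGF binding proteins, 0 were called in either line by edgeR, also at an unadjusted p under 0.05.

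Between the lines over both media, 11 of the 20 adaptors and proximal effectors were called lower in shBruce MEFs and 0 higher, against 15.7% and 16.3% of all genes. Their median log2 fold change was -0.34, against 0.0012 over all genes tested. They included Irs2 (-0.97, adjusted p = 0.0120), Frs2, the docking protein of FGF receptors (-0.79, adjusted p = 0.00961), and Sos1, which activates RAS (-0.64, adjusted p = 0.0118). With the length and GC trend removed, 7 were lower and 1 higher, against 7.99% lower of all genes, and the log2 fold changes of Frs2 and Sos1 shrank to -0.51 and -0.26 (adjusted p = 0.0173 and 0.0417). Leaving out a library gave 7 to 13 lower, 7 without shRenilla FM replicate 3, where calls over all genes fell from 3900 to 1396, and 13 without shBruce Starv replicate 3, where they rose to 6081. Of the 17 ligands, 4 were lower and 2 higher. Igf2 (-1.29), Pdgfd (-1.18) and Nrg1 (-0.73, or -0.37 with the trend removed) were the lower genes of that list with the largest changes. Nrg1 encodes a ligand of ERBB3 and ERBB4, which are not among the receptors followed here. Pdgfa (1.02, adjusted p = 0.00961) and the EGFR ligand gene Areg (0.80, adjusted p = 0.00944) were higher. Igf2 had 22 summed counts in shBruce FM and 39 in shBruce Starv, and its lines overlapped in Starv. Pdgfd had 40 summed counts in shBruce Starv, and its lines overlapped in FM.

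Of the 11 inhibitors and ubiquitin ligases, 5 were called lower between the lines and 0 higher, where 15.7% of all genes were lower. The trend removal left 3 lower, and leaving out a library gave 1 to 6, with 1 without shRenilla FM replicate 3 or shRenilla Starv replicate 1 or 2 (1396 to 1552 of all genes called in place of 3900). They were led by Cbl, the ligase of active receptors (-1.36 ± 0.345, adjusted p = 0.0159). Cbl remained called with the trend removed, at -1.06 (adjusted p = 0.0340). Of the 18 endocytosis and sorting genes, 6 were lower, led by the clathrin heavy chain gene Cltc (-0.51, adjusted p = 0.0111), Stam (-0.48) and Eps15 (-0.38), and 4 were higher, led by Epn1 (0.46), Chmp4b (0.40) and Ap2m1 (0.39). With the trend removed, 1 of them was lower and 1 higher, and without shRenilla FM replicate 1 or 3 or shRenilla Starv replicate 1 or 2, 2 were lower (1396 to 1695 of all genes called). Of the IGF binding proteins, Igfbp2 (-1.12) and Igfbp3 (-0.90) were lower and Igfbp6 (0.98) was higher, the last no longer with the trend removed (0.46, adjusted p = 0.0863). Igfbp2 (adjusted p = 0.0464) overlapped between the lines in Starv. Of the 24 other receptor tyrosine kinases, 5 were lower and 0 higher, near the 15.7% of all genes that were lower. They included Epha3 (-1.46, adjusted p = 0.00944), Kdr (-1.27) and Insr (-0.51), of which Insr overlapped between the lines and was lost with the trend removed (-0.20, adjusted p = 0.149). In shBruce FM and shBruce Starv, Epha3 had only 44 and 38 summed counts and Kdr 28 and 48. Leaving out a library gave 2 (without shRenilla Starv replicate 2) to 11 of the 24 lower (without shBruce Starv replicate 3), in fits that called 1401 and 6081 of all genes. Within Starv, 9 of the 20 adaptors were lower in shBruce, where 11.2% of all genes were. This count moved with that over all genes, from 2907 called to 573 with 2 adaptors lower without shBruce Starv replicate 1, the library with the fewest counts, and to 5735 with 14 lower without shBruce Starv replicate 3. It was 0 without shRenilla Starv replicate 1 or 2 or shBruce Starv replicate 2 (0, 0 and 15 of all genes called) and with the groups compared alone (0 of all genes), and 5 with the trend removed (4.91% of all genes lower).

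The genes whose levels followed Egfr most closely over the 12 libraries, among 10364 genes with a mean of at least 50 normalized counts, were Thada (Pearson r = 0.983), Arfgef1 (0.983), Utp20 (0.982), Slit2 (0.981) and Ascc3 (0.980). This is a description across libraries that share the differences between lines and in length trend. They too have long transcripts, with 10199 to 25433 bp of exons, and were lower in shBruce MEFs over both media, with log2 fold changes from -0.91 to -0.51. Slit2 encodes a secreted guidance cue of the ROBO receptors and Arfgef1 an exchange factor of ARF proteins.

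The 8 genes lie on GRCm38 at chromosome 11 from 16752203 to 16918158 (Egfr) and from 98412470 to 98437716 (Erbb2), chromosome 5 from 75152292 to 75198215 (Pdgfra), chromosome 18 from 61045150 to 61085061 (Pdgfrb), chromosome 8 from 25513654 to 25575718 (Fgfr1), chromosome 7 from 130162451 to 133123350 (Fgfr2) and from 67952827 to 68233668 (Igf1r), and chromosome 6 from 17463800 to 17573980 (Met). Fgfr2 is on the minus strand and the other 7 are on the plus strand. Annotated exons of Egfr, Pdgfrb, Igf1r and Met overlap no other gene. Those of Fgfr2 share bases with Ctbp2 on the same strand, and those of Pdgfra and Fgfr1 with short or non-coding genes, so their counts depend on how such reads were assigned.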

How the data were processed

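RNA-Seq counts of 12 libraries from shRenilla and shBruce#1 MEFs were used. From poly(A)-enriched RNA the authors sequenced single-end reads, discarded those from rRNA, mapped to mm10 with STAR 2.4.0d and counted reads per gene with HTSeq 0.5.4p3 (versions from the submitters' processing notes). The table deposited holds raw counts of 24062 symbols, 27 of them turned into dates (0.296% of counts). Annotation, strand setting and overlap mode are not given in the sources used here. Total counts of 7717265 to 18510540 per library were scaled by TMM.

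The fit used edgeR 4.0.16 (R 4.3.3) with filterByExpr, a mean per condition over 12 libraries, the quasi-likelihood test, two-sided, and Benjamini-Hochberg adjustment over 12154 genes at a level of 0.05. The main design replaces the voom and limma tests that the paper names, which served as an alternative. Exact permutation tests, two-sided, used log2(normalized count + 0.5), with a smallest p of 0.1 within a medium. Exon lengths came from GENCODE M21 on GRCm38, the assembly of mm10, with 22724 symbols matched directly and 933 through older symbols. Chi-square values per degree of freedom of 2.21 to 95.2 between replicates of a condition went beyond counting error, so errors are SDs or standard errors of the fit. The length and GC trend was removed per library by splines.

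Named were the 8 receptors, Birc6, up to 3 rising and 3 falling genes per list and comparison with the largest changes among those called, and the 5 genes most like Egfr. The members, lists, rule and tests were chosen with earlier results of these data known. Alternatives were DESeq2 size factors, upper-quartile normalization, DESeq2 1.42.0, limma-voom 3.58.1, no filter, at least 10 counts in every library, the groups compared alone, the replicate number as a block, each library left out, and the trend removed. The script was tested on simulated data. Other steps used Python 3.11.15 with pandas 2.3.3, numpy 2.4.6 and, for figures, matplotlib 3.10.9.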

Additional observations from a re-analysis of the deposited data

How the results depend on the processing

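The counts of receptors called were unchanged under DESeq2 size factors, limma-voom, DESeq2, no filter, at least 10 counts in every library and the replicate block. With upper-quartile factors, 1 receptor (Fgfr1) in place of 2 was called after starvation in shBruce MEFs. With the groups compared alone, 1 was called after starvation in shRenilla MEFs (Fgfr1) and 0 in shBruce MEFs. Between the lines, 1 was then called in FM (Fgfr2) and 0 in Starv. Over all genes these fits called 5013, 956, 597 and 0, in place of 2061, 2790, 0 and 2907, so these changes go beyond the receptors. With the length and GC trend removed, 0 in place of 2 were called between the lines in Starv and 1 in place of 3 over both media (Egfr). With the trend removed and the replicate block, 0 were called over both media (Egfr -0.44, adjusted p = 0.0595) and 0 in Starv, where 1 of all genes was called. Leaving out each library in turn gave 0 to 4 receptors called after starvation in shBruce MEFs, 0 to 4 between the lines in Starv, 2 to 4 over both media and 0 in the other 3 comparisons. Over all genes the same fits called 1855 to 4009, 0 to 5735 and 1396 to 6081 genes in these comparisons, and in Starv 0 of all genes without shRenilla Starv replicate 1 or 2, so these losses go beyond the receptors. Egfr and Fgfr2 were called over both media in 12 of these 12 fits (-0.97 to -0.67 and -0.60 to -0.42), Met in 5. The call of Egfr in Starv was lost without Starv replicate 1 or 2 of either line, and 4 receptors were called there without shBruce Starv replicate 3.

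Directions turned only for values that had not passed the test. With the trend removed, without and with the block, these were Erbb2 (-0.0093 and -0.014) and Pdgfrb (-0.060 and -0.065) between the lines in FM, Igf1r over both media (0.14 and 0.13) and, without the block, the interaction of Pdgfra (0.044). Without the filter they were Pdgfrb (-0.0032) and Fgfr1 (-0.00017) in FM and Igf1r in Starv (-0.015), the last also with limma-voom (-0.0081) and the replicate block (-0.0026). For starvation in shRenilla MEFs they were Fgfr2 (0.045) and Met (0.073) with upper-quartile factors, and Met with the groups alone (0.013) and the block (0.014). Leaving out a library turned further small values, for starvation of Egfr (-0.0035 to 0.30 in shRenilla, -0.52 to 0.076 in shBruce), Met (-0.12 to 0.11 in shRenilla), Birc6 (-0.26 to 0.13 in shRenilla), Pdgfra (-0.93 to 0.023), Pdgfrb (-0.052 to 0.25), Fgfr2 (-0.011 to 0.33) and Igf1r (-0.088 to 0.32) in shBruce. The same held between the lines for Pdgfrb (-0.063 to 0.14 in FM, -0.28 to 0.041 in Starv, -0.13 to 0.036 over both media), Fgfr1 in FM (-0.094 to 0.11), Igf1r in Starv (-0.24 to 0.18) and Erbb2 over both media (-0.096 to 0.012), and for the interactions of Pdgfra (-0.72 to 0.22) and Pdgfrb (-0.29 to 0.030). Other causes of these shifts were not tested.

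The labels do not say whether equal replicate numbers mark paired libraries. Of 18 same-numbered pairs, 4 had correlations over 0.1 (range -0.424 to 0.31). These correlations cannot settle the pairing, since the libraries also differed in length trend. The block alone changed no receptor call, and with the trend removed it ended that of Egfr over both media. The alternatives for the lists and for Birc6 were added after seeing the data. The lowest total, in shBruce Starv replicate 1, held 146 counts of Egfr.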
